A study of Mus musculus with 6 samples.

Results

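The 10 genes of the BCL2 family described here were followed in a mouse model of acute myeloid leukemia (AML) treated with cytarabine. They were taken by gene symbol, and all 10 were found among the 23284 genes of the deposited tables. RNA came from C1498 cells, a mouse AML line, here a single clone that carries the green fluorescent protein from a retroviral vector. The cells had been injected into the veins of C57BL/6J mice, which were female and 8 to 10 weeks old unless stated otherwise. On day 21, cells positive for GFP and CD49b were sorted from the marrow of the femur, tibia and pelvis of 3 cytarabine-treated and 3 control mice. Control mice are described as untreated and as PBS-treated. Cytarabine was injected into the peritoneum on days 19 and 20 in the mice used for imaging, and the schedule of the sequenced mice is not given separately. Every mouse was sequenced as its own library. Values are given in the order cytarabine 1, 2 and 3, then control 1, 2 and 3.

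The BCL2 family controls the mitochondrial route of cell death. Bcl2, Bcl2l1 (BCL-XL) and Mcl1 encode survival proteins, which hold the effectors BAX and BAK1 inactive, and free effectors open pores in the outer mitochondrial membrane that release cytochrome c. Bcl2l11 (BIM), Bbc3 (PUMA), Pmaip1 (NOXA), Bid and Bad encode BH3-only proteins, which bind the survival proteins and in part activate the effectors, and leukemia cells differ in which survival protein they depend on. The activity of these proteins is also set by phosphorylation, cleavage and turnover, which RNA levels do not show.

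The unit was FPKM, the number of fragments scaled to transcript length and to library size, so levels of different genes can be compared per length. Library totals inferred from the steps between low values ranged from 11500000 to 18800000 reads, so that for a 2000-base transcript 3 reads equal 0.0886 to 0.145 FPKM. The labelled cell type was compared with its markers. The 12 myeloid markers summed to 126 to 310 FPKM and differed among themselves. Lyz2 was between 52.8 and 233 FPKM, while Cd33 was at most 2.12 FPKM, Kit at most 1.59 FPKM and Csf1r at most 5.81 FPKM. Cytarabine 1 stood apart in the granule genes, with Mpo at 71.1 FPKM, Elane at 81.7 FPKM and Prtn3 at 64.3 FPKM, against at most 12.3, 9.94 and 8.85 FPKM in the other libraries. Of 10 T cell markers, the T cell receptor gene Cd3g was between 449 and 652 FPKM and Cd3e between 130 and 199 FPKM. Lck was between 75.5 and 105 FPKM, Zap70 between 66.4 and 83.5 FPKM and Cd3d between 3.61 and 9.99 FPKM. Cd247, Cd4, Cd8a, Cd8b1 and Cd5 were under 1 FPKM in every library. The panleukocyte gene Ptprc was between 284 and 386 FPKM. Itga2, which encodes CD49b, was at 7.79 to 8.11 FPKM in treated mice, against 10.6 to 13.3 FPKM in control mice. RNA of other tissues divided the libraries across the groups. The summed level of 14 colon epithelium markers reached 385, 4964 and 5389 FPKM in treated mice, against 2361, 30.3 and 28.3 FPKM in control mice, so that cytarabine 2, cytarabine 3 and control 1 held much of it and the remaining libraries little. Heart markers were highest in control 1, at 2518 FPKM, and lowest in cytarabine 1, at 7.46 FPKM. Of 8 neutrophil markers, 6 were lower in all treated than in all control mice, against 1507 of the 11703 genes whose mean reached 1 FPKM. The 8 summed to 1433, 199 and 189 FPKM in treated mice, against 1438, 2043 and 2004 FPKM in control mice. In that sum cytarabine 1 was near control 1, and cytarabine 2 and 3 were far lower. Of 7 NK cell markers, 5 were higher in every cytarabine library, at 125 to 156 FPKM against 90.5 to 98.3 FPKM in sum, while the defining NK genes Ncr1, Eomes and Tbx21 were under 1 FPKM throughout. The part of these differences in the results below was not tested. In sorted bulk RNA, a change in the number of cells of a type and a change of RNA per cell cannot be told apart.

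With cytarabine, Bcl2l1 was lower and Bcl2 and Bcl2l11 were higher, by at most 1.41-fold on the log2(FPKM + 1) scale, while Mcl1, Bax and Bak1 differed by 0.08, -0.02 and 0.01 on the log2 scale. The largest difference, that of Pmaip1, varied most between mice. The test was limma on log2(FPKM + 1) over the 11703 genes whose mean reached 1 FPKM, two-sided, with Benjamini-Hochberg adjustment, and all 10 members passed that filter. None of the members had an adjusted p under 0.05, nor did any other gene (0% of 11703). At an unadjusted p under 0.05 were 3 of the 10 members, against 17.4% of all tested genes. For 5 members, Bcl2l1, Bcl2, Bcl2l11, Bbc3 and Bid, every cytarabine library lay on one side of every control library, against 23.8% of all tested genes. Of the 10 differences, 6 were above 0 and 4 below. Their median size without regard to sign was 0.18 on the log2 scale, against 0.18 over all tested genes.

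**Figure D1:**
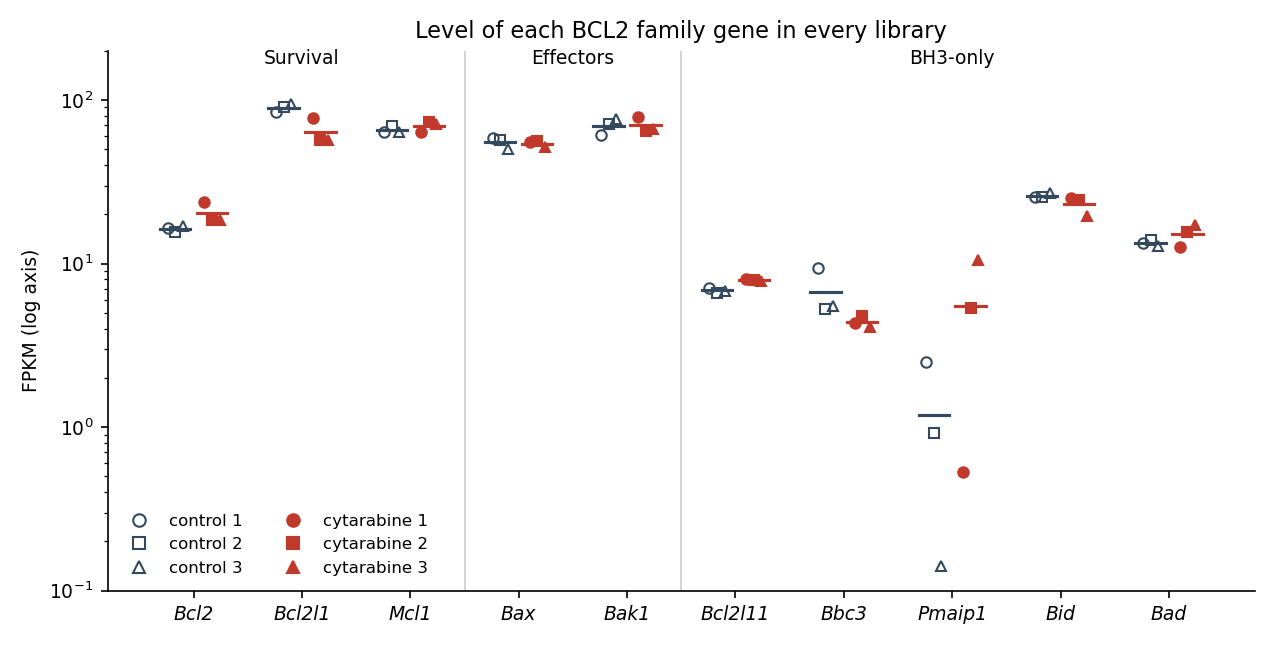
FPKM (log axis) of the 10 BCL2 family genes in each library, grouped by role, with open symbols for control, filled symbols for cytarabine, the symbol shape for the replicate number and a bar for the group mean. Bcl2l1, Bak1, Mcl1 and Bax lie at or above 49.96 FPKM, and Pmaip1 spreads over a 74.6-fold range.

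For the members with an unadjusted p under 0.05, the 250 bases before the transcription start are shown, so that their promoters can be compared. The sequences are from RefSeq (GRCm38.p6), read 5′ to 3′ on the gene's strand, and of several listed starts the one nearest the gene start in GENCODE M21 was taken. They lie at chr2:152831729-152831978 (minus) for Bcl2l1, chr1:106714291-106714540 (minus) for Bcl2 and chr2:128125788-128126037 (plus) for Bcl2l11. Capitals mark GGGCGG (the GC box) on either strand, and in Bcl2l11 also GTAAACA (a FOXO site), CCGGAAG (an ETS core) and CCAAT on either strand.
Bcl2l1: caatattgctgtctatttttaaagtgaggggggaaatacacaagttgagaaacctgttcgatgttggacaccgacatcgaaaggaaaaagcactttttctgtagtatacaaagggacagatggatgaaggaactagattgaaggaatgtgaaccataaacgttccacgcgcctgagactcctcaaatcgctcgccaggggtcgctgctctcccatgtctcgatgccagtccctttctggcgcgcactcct
Bcl2: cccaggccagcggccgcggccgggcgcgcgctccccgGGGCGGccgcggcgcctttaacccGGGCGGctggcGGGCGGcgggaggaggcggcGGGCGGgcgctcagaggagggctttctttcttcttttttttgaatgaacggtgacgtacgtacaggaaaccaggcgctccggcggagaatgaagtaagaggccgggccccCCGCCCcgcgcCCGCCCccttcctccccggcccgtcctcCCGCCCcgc
Bcl2l11: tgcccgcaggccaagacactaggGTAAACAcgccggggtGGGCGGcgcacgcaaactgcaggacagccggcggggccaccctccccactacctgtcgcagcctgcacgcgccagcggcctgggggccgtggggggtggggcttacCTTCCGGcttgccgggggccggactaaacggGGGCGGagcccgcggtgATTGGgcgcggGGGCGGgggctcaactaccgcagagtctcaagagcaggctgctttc
The Bcl2 and Bcl2l11 promoters were 74.8% and 72% G or C and that of Bcl2l1 47.6%, against a median of 52.4% over all windows.

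Windows of 300 bases, 250 before and 50 after the start, were searched on both strands for 9 motifs, none of which contains another. The search covered 9 members, and Pmaip1 was not searched. GGGCGG was found in 7 of the 9 members, Bad, Bax, Bbc3, Bcl2, Bcl2l11, Bid and Mcl1, and in 35.7% of all 32851 windows. Bcl2 held 7 of them, and Bcl2l1 and Bak1 held none. The p53 half-site was found in Bax alone (8.36% of all windows), GTAAACA in Bcl2l11 alone (3.65%), CACGTG in Bax alone (7.15%), CCAAT in Bcl2l11 alone (37.4%) and CCGGAAG in Bcl2l1, Bcl2l11 and Mcl1 (8.86%). The match of Bcl2l1 lies after the start and so outside the bases printed. The CArG box, the element that SRF binds, was in none of the 9 windows and in 1.63% of all windows, and TATAAA (13.6%) and TGACGTCA (1.79%) were in none of the 9 either. These are matches of letters in a short window and say nothing of binding.

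By level, the members fell into an upper set of 4 and a lower set of 6. Over the 6 libraries, Bcl2l1 had a mean of 76.9 FPKM (range 56.9 to 94.8), Bak1 of 69.7 FPKM (61.0 to 79.0), Mcl1 of 67.4 FPKM (63.5 to 72.9) and Bax of 54.7 FPKM (49.96 to 58.6). The ranges of Bcl2l1, Bak1 and Mcl1 overlapped, and the highest Bax value was above the lowest Bcl2l1 value. At least 91.8% of all listed genes had a mean below each of these 4. Bid followed at 24.5 FPKM, Bcl2 at 18.3 FPKM and Bad at 14.2 FPKM, with neighbouring ranges that overlapped. Bcl2l11 at 7.39 FPKM, Bbc3 at 5.56 FPKM and Pmaip1 at 3.33 FPKM were lowest, and their ranges overlapped too. In controls Bcl2l1 led the order with a mean of 89.8 FPKM. In cytarabine libraries its mean stood at 63.9 FPKM, after Bak1 at 69.8 FPKM and Mcl1 at 69.4 FPKM. Bak1 was above Bcl2l1 in every treated library, but in cytarabine 1 Bcl2l1 was above Mcl1, at 77.9 against 64.0 FPKM.

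Among the survival genes, Bcl2l1, whose printed promoter bases hold none of the searched motifs, showed the smallest p of the family. It lies on chromosome 2 from 152780668 to 152831728 (minus strand, GRCm38). Bcl2l1 measured 77.9, 57.0 and 56.9 FPKM in treated mice, against 83.9, 90.6 and 94.8 FPKM in control mice. The groups did not overlap, and cytarabine 1 was the highest of the treated libraries. The group means were 63.9 ± 12.1 FPKM (SD, n = 3) and 89.8 ± 5.49 FPKM (SD, n = 3), and the log2 fold change was -0.50 (standard error 0.14, 95% interval -0.84 to -0.16, unadjusted p = 0.0116, adjusted p = 0.19 from limma). In size this difference exceeded that of 83.2% of the tested genes. Over 16 other settings of the fit the direction held and the unadjusted p was under 0.05 in 15. The exception was the limma fit in which scores for colon and heart entered as covariates (log2 fold change -0.34, unadjusted p = 0.205). The adjusted p ranged from 0.0502 to 0.997 over the 16. The tables hold 1 value per gene, so the long and short splice forms of Bcl2l1, which have opposite effects on survival, were not separated.

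Bcl2, on chromosome 1 from 106538178 to 106714274 (minus strand), encodes the protein that gave the family its name. Its level was 23.9, 18.5 and 18.5 FPKM with cytarabine and 16.4, 15.5 and 16.9 FPKM in controls. All treated mice were above all controls, and cytarabine 1 stood highest. The means were 20.3 ± 3.10 FPKM (SD, n = 3) and 16.3 ± 0.715 FPKM (SD, n = 3), and the log2 fold change was 0.29 (standard error 0.11, 95% interval 0.01 to 0.57, unadjusted p = 0.0435, adjusted p = 0.277 from limma). Its unadjusted p was under 0.05 in 8 of the 16 other settings. It was above 0.05 without cytarabine 1 and without any one of the controls, with log2 fold changes between 0.18 and 0.35 over the fits that left out a library. Mcl1, on chromosome 3 from 95658788 to 95663176 (plus strand), encodes a short-lived survival protein on which many myeloid leukemias depend. Mcl1 was at 64.0, 72.9 and 71.2 FPKM in treated mice, against 63.5, 68.9 and 63.8 FPKM in control mice. The groups overlapped, and the log2 fold change of 0.08 had a 95% interval from -0.10 to 0.26 (adjusted p = 0.533 from limma).

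The effector genes showed the smallest differences. Bax, on chromosome 7 from 45461697 to 45466898 (minus strand), is also a known target of p53. It was at 55.0, 55.8 and 51.8 FPKM in treated mice, against 58.6, 57.2 and 49.96 FPKM in control mice, with a log2 fold change of -0.02 (95% interval -0.22 to 0.17, adjusted p = 0.872 from limma). Bak1, on chromosome 17 from 27019810 to 27029009 (minus strand), was at 79.0, 64.4 and 66.2 FPKM in treated mice, against 61.0, 71.5 and 76.2 FPKM in control mice. Its log2 fold change was 0.01 (95% interval -0.28 to 0.30, adjusted p = 0.981 from limma). The groups overlapped for both effectors, and the intervals leave room for a change of up to 0.30 on the log2 scale. Within each group, Bak1 was lower in the libraries with much colon transcript, so that its 3 lowest values were those of cytarabine 2, cytarabine 3 and control 1.

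Among the BH3-only genes, Bcl2l11, whose promoter holds the FOXO match, varied least between mice. It lies on chromosome 2 from 128126038 to 128162547 (plus strand). Bcl2l11 was at 8.03, 7.90 and 7.86 FPKM in treated mice, against 7.09, 6.60 and 6.84 FPKM in control mice. All cytarabine libraries were above all controls, with means of 7.93 ± 0.0847 FPKM (SD, n = 3) and 6.84 ± 0.244 FPKM (SD, n = 3). The log2 fold change was 0.19 (standard error 0.07, 95% interval 0.01 to 0.37, unadjusted p = 0.0445, adjusted p = 0.278 from limma). Leaving out any single library took the unadjusted p above 0.05, with log2 fold changes between 0.17 and 0.21. It was 0.13 when scores for colon and heart entered the fit and 0.05 after quantile normalization.

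Bbc3, a p53 target on chromosome 7 from 16308393 to 16318205 (plus strand), was lower with cytarabine. It was at 4.34, 4.79 and 4.09 FPKM in treated mice, against 9.37, 5.27 and 5.48 FPKM in control mice. The groups did not overlap, but control 1 was far above the other 5 libraries. The log2 fold change was -0.47 (standard error 0.21, 95% interval -1.002 to 0.06, adjusted p = 0.317 from limma). It was -0.24 without control 1, -0.69 after quantile normalization and -1.03 with the covariates, with an unadjusted p under 0.05 in both of the latter. Bid, which caspase 8 cleaves to link death receptors to mitochondria, lies on chromosome 6 from 120891930 to 120916853 (minus strand). It was at 25.3, 24.4 and 19.5 FPKM in treated mice, against 25.6, 25.4 and 27.2 FPKM in control mice. The groups did not overlap, although cytarabine 1 and control 2 differed by less than the spread within either group, and the log2 fold change was -0.18 (95% interval -0.45 to 0.09, adjusted p = 0.4 from limma). Bad, on chromosome 19 from 6941861 to 6951899 (plus strand), encodes a BH3-only protein that growth factor signals switch off by phosphorylation. It was at 12.7, 15.5 and 17.3 FPKM in treated mice, against 13.3, 13.9 and 12.9 FPKM in control mice. The groups overlapped through cytarabine 1, and the log2 fold change was 0.16 (95% interval -0.13 to 0.46, adjusted p = 0.466 from limma). The log2 fold change of Bad was 0.07 without cytarabine 3, 0.25 with the covariates and 0.28 without cytarabine 1, where its unadjusted p was under 0.05. That of Bid was -0.07 without cytarabine 3 and -0.41 with the covariates.

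**Figure D2:**
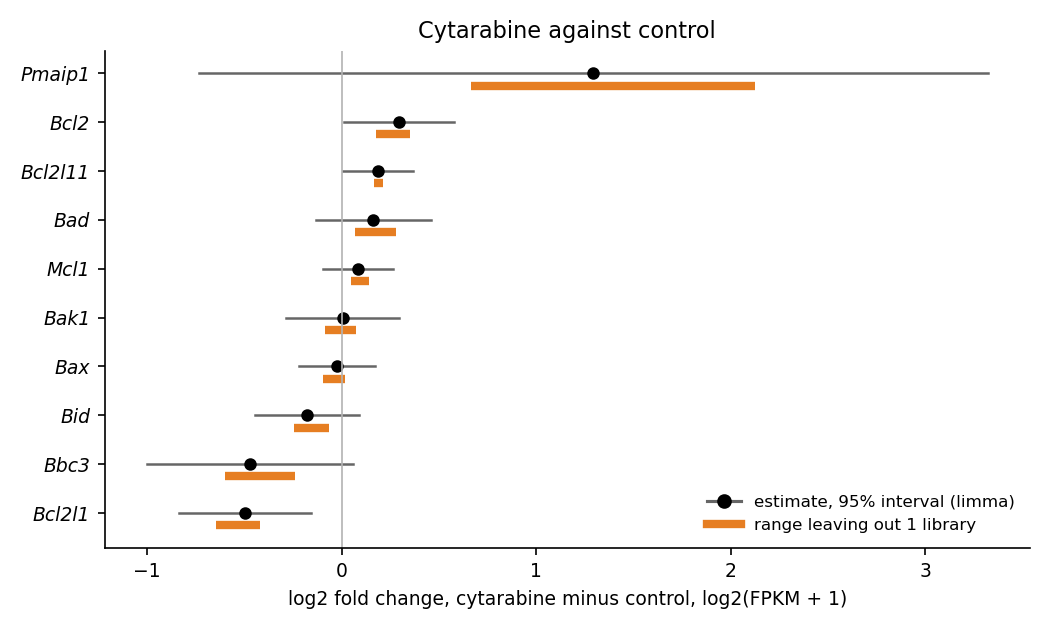
Log2 fold change of each member, cytarabine minus control, on the log2(FPKM + 1) scale, with the estimate and 95% interval from limma in black and grey, and in orange the range over the 6 fits that each left out 1 library. The intervals of Bcl2l1, Bcl2 and Bcl2l11 do not include 0, and that of Pmaip1 runs from -0.73 to 3.32.

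Pmaip1 had the largest difference and the widest spread. It measured 0.528, 5.38 and 10.5 FPKM in treated mice, against 2.49, 0.920 and 0.141 FPKM in control mice. The groups overlapped, with cytarabine 1 below 2 of the controls. The log2 fold change was 1.29 (standard error 0.82, 95% interval -0.73 to 3.32, adjusted p = 0.413 from limma). At the inferred totals these values correspond to roughly 4.11 to 353 reads on its longest transcript of 2727 bases, so the lowest rests on few reads. Without cytarabine 3 the log2 fold change was 0.66, and without cytarabine 1 it was 2.12. Pmaip1 was the member that was higher in each of the 3 libraries with much colon transcript than in the other 3, a pattern shown by 17.2% of all tested genes. Within those 3 libraries the difference between groups was 1.30, and within the others it was 0.05 on the log2 scale, with a single mouse on one side each time.

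Ratios of members within a library do not depend on how libraries are scaled, and were computed as descriptions without a test. Bcl2l1 was 3.26, 3.08 and 3.07 times the level of Bcl2 in cytarabine 1, 2 and 3, and 5.12, 5.84 and 5.59 times in control 1, 2 and 3. The means were 3.14 ± 0.107 (SD, n = 3) and 5.52 ± 0.363 (SD, n = 3), a gap wider than the spread within either group. The ratio of Bcl2l11 to Bcl2l1 was 0.103, 0.139 and 0.138 with cytarabine, and 0.0845, 0.0729 and 0.0721 in controls. Bcl2l1 was lower, and Bcl2 and Bcl2l11 were higher, in every treated library than in every control. The separation of both ratios follows from that and is no further result. In sum, the 3 survival genes had 166, 148 and 147 FPKM with cytarabine and 164, 175 and 176 FPKM in controls, which overlapped. Divided by the sum of Bax and Bak1, this gave 1.24 ± 0.00403 (SD, n = 3) for treated mice against 1.37 ± 0.0155 (SD, n = 3) for control mice, without overlap. On the log2 scale the difference was -0.15. It was -0.03 when the mean of log2(FPKM + 1) of the genes replaced the log2 of their sum, which gives Bcl2l1 less weight. With that measure the groups overlapped, at -0.448 ± 0.035 (SD, n = 3) for treated and -0.418 ± 0.037 (SD, n = 3) for control mice. Of the survival total, Bcl2l1 made up 52.3% ± 1.47 (SD, n = 3) in controls and 41.4% ± 4.84 (SD, n = 3) with cytarabine. Bcl2 made up 9.51% ± 0.581 (SD, n = 3) and 13.2% ± 1.07 (SD, n = 3). Mcl1 made up 38.2% ± 1.602 (SD, n = 3) and 45.4% ± 5.91 (SD, n = 3), with overlap between the groups. The ratio of Bax to Bcl2 overlapped too, at 3.402 ± 0.397 (SD, n = 3) in controls and 2.70 ± 0.365 (SD, n = 3) in treated mice. The 5 BH3-only genes together were 0.317 ± 0.0318 (SD, n = 3) of the survival total in controls and 0.367 ± 0.0530 (SD, n = 3) with cytarabine, and those values overlapped. Without Pmaip1 they were 0.309 ± 0.0250 (SD, n = 3) and 0.330 ± 0.0255 (SD, n = 3), so that the difference of the means went from 0.0505 to 0.0205.

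**Figure D3:**
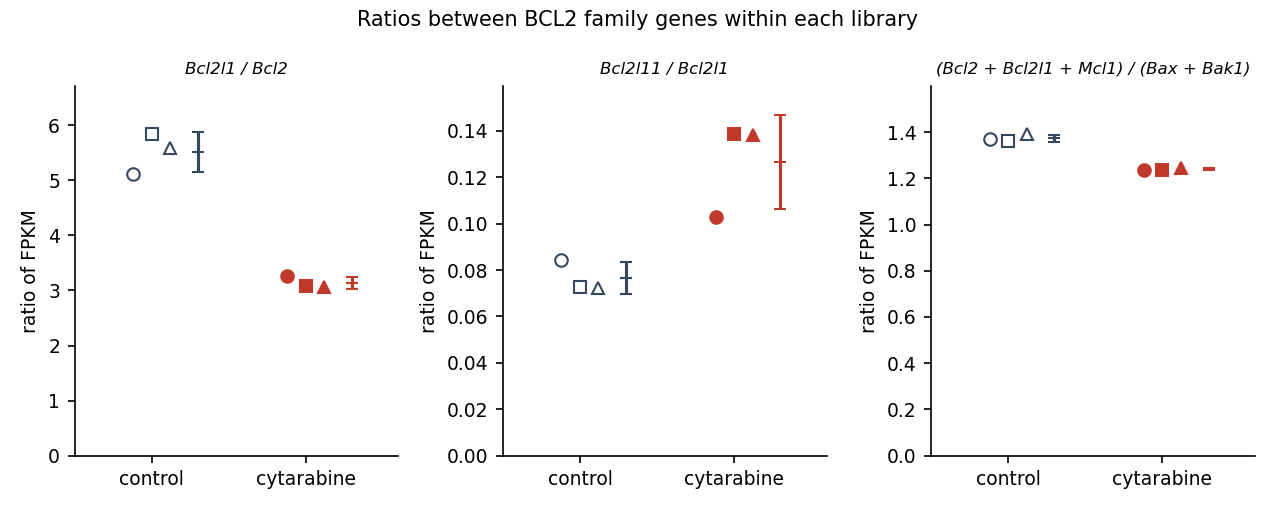
Ratios of FPKM within each library for Bcl2l1 over Bcl2, Bcl2l11 over Bcl2l1, and the summed survival genes over the summed effectors, with open symbols for control, filled symbols for cytarabine, and the mean with its SD (n = 3) beside each group. The ratio of Bcl2l1 to Bcl2 lies between 3.07 and 3.26 with cytarabine and between 5.12 and 5.84 in controls, a separation already given by the levels of both genes.

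Because colon transcript divided the libraries, each difference was also taken on both sides of that division. Cytarabine 1 was set against control 2 and 3, which hold little colon transcript, and cytarabine 2 and 3 against control 1, which hold much. On both sides the treated libraries held more of it than the controls. The mean log2(FPKM + 1) of its markers was 3.81 against 1.28 and 1.12 on the first side. On the second it was 6.98 and 7.20 against 5.99. The division thus did not hold its level equal between the groups, and each side sets a single mouse against the other group. For 7 of the 10 members the difference had the same sign on both sides as in all libraries, against 65.7% of all tested genes. Bcl2l1 differed by -0.25 with little colon transcript and by -0.55 with much of it, Bcl2 by 0.53 and 0.17, and Bcl2l11 by 0.23 and 0.13. Bbc3 differed by -0.25 and -0.93, and Bid by -0.05 and -0.22. Mcl1, Bax and Bad had opposite signs on the 2 sides, with differences of -0.05 and 0.18, of 0.04 and -0.12, and of -0.07 and 0.29.

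**Figure D4:**
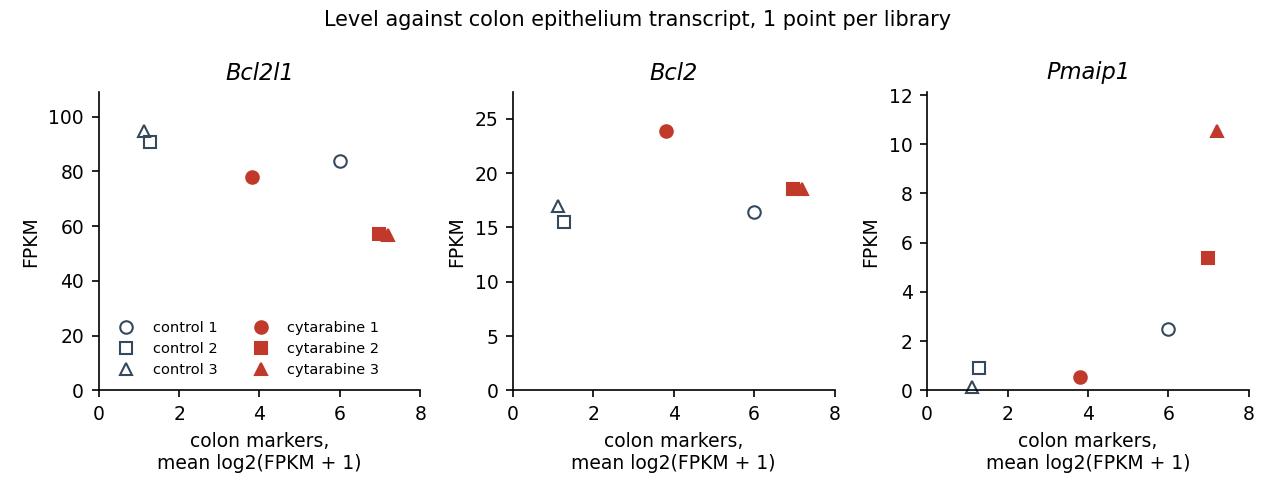
FPKM of Bcl2l1, Bcl2 and Pmaip1 against the mean log2(FPKM + 1) of 14 colon epithelium markers, 1 point per library, with open symbols for control and filled symbols for cytarabine. Bcl2l1 is lower with cytarabine on both sides of the axis, Bcl2 is higher on both, and the 3 highest Pmaip1 values belong to the 3 libraries with the most colon transcript.

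Other genes of the pathway were taken from 8 lists that hold 76 genes, of which 66 were tested. At an unadjusted p under 0.05, 10 were higher and 4 lower with cytarabine, and none had an adjusted p under 0.05 from limma. These 14 of 66 stand against 17.4% of all tested genes, which is also the share to set beside the counts of the single lists. Of 9 tested further BCL2 family genes, none had an unadjusted p under 0.05. In this list 4 were higher in all libraries with much colon transcript, a pattern shown by 17.2% of all tested genes. Among these 4, Bcl2l14 measured 0.756, 9.23 and 9.11 FPKM in treated mice, against 4.45, 0.160 and 0.172 FPKM in control mice. The near-identical copies Bcl2a1a, Bcl2a1b and Bcl2a1d, among which reads can be divided, were at most 3.61 FPKM.

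Downstream of mitochondria, Casp6, an executioner caspase, differed by 0.35 in the log2 fold change, and Dffa, the inhibitor of the nuclease that caspases release, by -0.23. Of the 14 genes for the apoptosome and caspases, 2 were higher and 1 was lower at an unadjusted p under 0.05. Of 7 genes for inhibitors of apoptosis, 4 were higher and none lower at an unadjusted p under 0.05, with a median log2 fold change of 0.24 over the 7. Birc5, Birc6 and Xiap had log2 fold changes of -0.20, -0.14 and -0.0016 that did not pass that threshold. Birc3, which restrains cell death downstream of TNF receptors, was at 10.7, 15.1 and 15.9 FPKM in treated mice, against 9.24, 8.71 and 6.97 FPKM in control mice (log2 fold change 0.67, standard error 0.18, adjusted p = 0.182 from limma). Naip2, a sensor of bacterial proteins that carries the same type of domain, had a log2 fold change of 0.46.

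Upstream, the death receptor gene Fas was at 4.93, 5.59 and 6.32 FPKM in treated mice, against 2.84, 3.88 and 2.39 FPKM in control mice. The groups did not overlap (log2 fold change 0.72, standard error 0.17, adjusted p = 0.166 from limma). Tradd, an adaptor of TNF receptor 1, differed by 0.42, and of 8 tested genes on the route to BID these 2 had an unadjusted p under 0.05. Huwe1, a ubiquitin ligase that marks MCL1 for degradation, was at 40.8, 30.9 and 33.6 FPKM in treated mice, against 43.8, 42.7 and 44.8 FPKM in control mice (log2 fold change -0.32, adjusted p = 0.234 from limma). It was the 1 gene of 6 for MCL1 turnover with an unadjusted p under 0.05. Of 7 tested transcription factors of BH3-only genes, Myc had a log2 fold change of -0.56 (adjusted p = 0.248 from limma), and the others did not have an unadjusted p under 0.05. Trp53, which encodes p53, was at 134, 111 and 103 FPKM in treated mice, against 104, 114 and 133 FPKM in control mice. Among 8 tested other p53 targets, Trp53inp1 was higher with a log2 fold change of 1.43 and Sesn2 lower with -0.50 at an unadjusted p under 0.05. Bag1, a chaperone cofactor that binds BCL2, had a log2 fold change of 0.27 and was the 1 of 7 genes for outer membrane partners with an unadjusted p under 0.05. The genes named from these lists had been picked for an unadjusted p under 0.05. With scores for colon and heart as covariates, 550 of 11703 genes (4.7%) had an unadjusted p under 0.05. Of the genes named from these lists, Fas (1.14), Myc (-0.88) and Sesn2 (-0.95) were among them, each with an adjusted p of 0.997 from limma. The log2 fold change of Bag1 was then 0.06, that of Trp53inp1 0.71, that of Huwe1 -0.17 and that of Casp6 0.62, and these did not pass, nor did Birc3, Naip2, Tradd and Dffa.

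**Figure D5:**
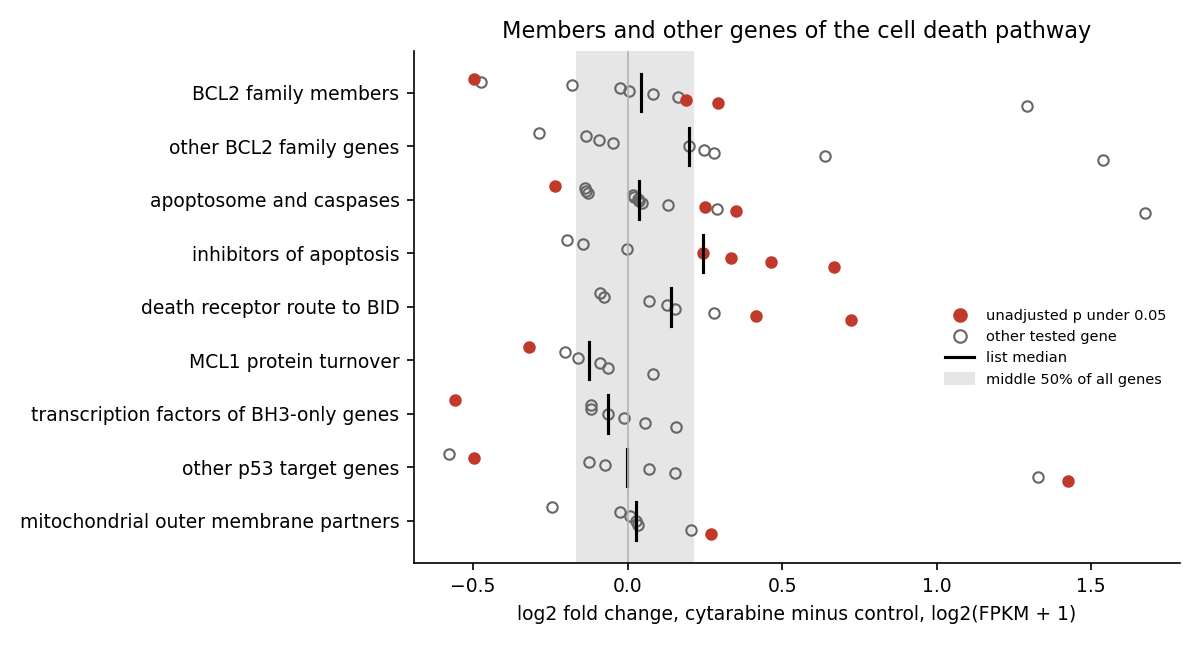
Log2 fold change, cytarabine minus control, of the 10 members and of the tested genes of 8 other lists, 1 point per gene, filled where the unadjusted p is under 0.05, with a bar at each list's median and a grey band from -0.16 to 0.21 for the middle 50% of all tested genes. The inhibitors of apoptosis have 4 filled points, all above 0.

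The genes whose pattern over the 6 libraries lay closest to that of Bcl2l1 were Snd1, Scamp3 and Tnk2. Likeness was the Euclidean distance between log2(FPKM + 1) values centred on each gene's mean, which was 0.0584, 0.0611 and 0.0757 for these 3, where a flat gene would be at 0.720 from Bcl2l1. Snd1 was at 95.6, 69.2 and 69.9 FPKM in treated mice, against 102, 106 and 114 FPKM in control mice. Closest to Pmaip1 were Cldn4, Lhfpl2 and Luzp1, at distances of 0.421, 0.443 and 0.486, where a flat gene would be at 2.88. Cldn4, a tight junction gene of epithelia, was at 0.190, 3.94 and 8.65 FPKM in treated mice, against 2.79, 0.501 and 0 FPKM in control mice, and all 3 were higher in each library with much colon transcript than in the others.

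Some loci of the family overlap other genes in the annotation. On the opposite strand, Bid overlaps Bcl2l13, Bad overlaps Gpr137 and Bak1 overlaps Ggnbp1, each of which is also listed in the tables. On the same strand, Bax overlaps the annotated gene Gm45808. The libraries were made with a kit that keeps strand, but whether strand was used in computing FPKM is not given in the sources used here, so reads of these neighbours may have been shared. Pmaip1 lies on chromosome 18 from 66458533 to 66465565 (plus strand).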

How the data were processed

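RNA from sorted C1498 cells of 3 cytarabine-treated and 3 control mice was sequenced as 75-base single-end reads. Per the submitters' processing notes and the methods, the authors mapped reads to mm10 with TopHat2 2.0.13, Bowtie2 2.2.3 and SAMtools 0.1.19 and deposited FPKM per gene from Cufflinks 2.2.1. The annotation and options of Cufflinks are not given in the sources used here. FPKM are not counts, and a count test was not run.

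Groups and replicate numbers came from the sample records. From the FPKM, log2(FPKM + 1) was fitted for the 11703 of 23284 genes whose mean reached 1 FPKM, with limma 3.58.1 in R 4.3.3 (lmFit, eBayes with trend), and the step was tested on simulated data. Library totals were inferred from low values of 3717 genes with 1 transcript, assuming 200-base fragments and GENCODE M21 lengths (GRCm38), with 69.7% to 74.2% of the values within 0.1 of a whole read. Intervals are 95% confidence limits for the difference between group means. They rest on the variation between mice, with each gene's variance drawn by limma toward that of genes of similar level. Positions come from the same annotation and promoters from RefSeq. Figures were drawn with matplotlib 3.10.9.

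The members and lists were chosen with earlier results of these data known. Named genes are the members, up to 2 genes in each direction of each other list with the smallest unadjusted p under 0.05, and the 3 nearest patterns of 2 members. A gene that this rule names is not reported here. Bcl2l14, Trp53, the Bcl2a1 copies and the individual markers were picked with their values in view. Alternatives were other pseudocounts, filters and scalings, no trend, the replicate number as a block, colon and heart scores as covariates, and leaving out each library. The log2 ratio of group means and the share of differences with the same sign on both sides of the colon division were added after the data were seen. Of the ratios between members, only survival to effector and BH3-only to survival were planned.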

Additional observations from a re-analysis of the deposited data

How the results depend on the processing

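Of 189 values of the members' log2 fold changes under other settings, 180 kept their direction, none of those with a test had an adjusted p under 0.05, and 9 changed sign. These were Bak1 (-0.085 to 0.074 when leaving out 1 library), Bax (0.00031 with quantile normalization, 0.040 within the libraries with little colon transcript, and -0.094 to 0.019 when leaving out 1 library), and, within the libraries with little colon transcript, Mcl1 (-0.049) and Bad (-0.073). Of 284 values of the other named genes, 1 changed sign, Dffa with the covariates (0.055). The cause was not tested. The 3 members with an unadjusted p under 0.05 became 1 with the covariates (Bbc3) and 1 to 3 when leaving out 1 library, with 1 (Bcl2l1) without any one of the controls. In limma, the number of genes with an adjusted p under 0.05 was 0 (2038 at an unadjusted p under 0.05), against 1 with a pseudocount of 0.1 or of 0.5, 2 without trend, and 0 to 6 (6 without cytarabine 1) when leaving out 1 library. The 2038 became 550 with the covariates, in a fit with 2 more terms, and 1176 (without control 3) to 4111 (without cytarabine 1). The 5 members whose groups did not overlap became 5 to 8 when leaving out 1 library, and the 2781 genes 3374 to 6586, both highest without cytarabine 1, in comparisons of fewer mice. The difference in the survival to effector ratio was -0.031 with the mean of log2(FPKM + 1), and the groups then overlapped.

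With the replicate block, 994 genes and 1 member, Bcl2l1, had an unadjusted p under 0.05. Same-numbered libraries came from different mice, and their deviations from the group means correlated at -0.709, -0.247 and -0.594. Whether they were handled together is not given, and these correlations over so few libraries cannot tell. FPKM without counts give no measure of the sampling error of single values. Among the members the fewest reads were inferred for Pmaip1, roughly 4.11 at its lowest value.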
